A study of Mus musculus with 4 samples.

Results

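The genes described here are 39 genes of astrocytes, the glial cells that wrap synapses and vessels. They were measured in cerebrums of mice with deletion of Mfsd2a directed to vascular endothelium. Mfsd2a carries lysophosphatidylcholine with docosahexaenoic acid into the brain. The list joins genes of resting, or homeostatic, astrocytes with genes known to be raised in reactive ones, and its members were taken by gene name from the 18194 genes with a probe set of a single symbol. One probe set stood for each gene, the brightest by mean log2 signal over the 4 arrays, and a mean of 50 was required. All 39 members passed, the dimmest being Itih3 at a mean of 115, among 12426 genes in all. Each array was hybridised with pooled RNA of 5 to 6 animals of a genotype, taken from one side of the cerebrum after perfusion. All animals carried floxed Mfsd2a alleles (Mfsd2afl/fl), and the controls had no cre. The constitutive pair, at postnatal day 9, was 2aECKO, with Tie2-cre, against 2afl/fl. Tie2-cre acts in endothelium before birth and also in blood cell lineages. The induced pair, at postnatal day 8, was 2aiECKO, with the endothelial Cdh5ERT2-cre, against 2afl/fl 4-OHT, both given 4-hydroxytamoxifen (4-OHT) from birth. Males and females were used, and the sources used here do not give the sexes in each pool. The source name of the induced knockout says 2aECKO where its title and genotype say otherwise, and the latter were followed.

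Astrocytes clear glutamate and potassium released by neurons, turn glutamate into glutamine, store glycogen, and send endfeet rich in water channels to the vessel wall. In mice much of the astrocyte population forms in the first weeks after birth, when many of these genes are still rising. After injury or inflammation astrocytes become reactive, a state marked above all by the filament protein Gfap. The comparison asks which astrocyte genes were higher together with Gfap when Mfsd2a deletion was directed to the endothelium, and which were not. The defining markers Gfap, Aqp4 and Aldh1l1 were well measured, with signals of at least 264 on every array.

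The promoters of Gfap, which had the largest fold of the members in the constitutive pair, and of the 3 metallothionein genes, which did not move alike, are shown as description. They are 300-base windows of RefSeq on GRCm38.p6, from 250 bases before the transcript start to 50 after it, along the strand of the gene. In Gfap (chr11:102897151-102897450, minus strand) capitals mark a STAT-type site (TTCNNNGAA) and, on the opposite strand, a sterol regulatory element (TCACNCCAC). In Mt1 (chr8:94178839-94179138), Mt2 (chr8:94172368-94172667) and Mt3 (chr8:94152357-94152656), all on the plus strand, capitals mark the core of the metal response element (TGCACNC or TGCGCNC, either strand), the site of the zinc-sensing factor Mtf1.
Gfap: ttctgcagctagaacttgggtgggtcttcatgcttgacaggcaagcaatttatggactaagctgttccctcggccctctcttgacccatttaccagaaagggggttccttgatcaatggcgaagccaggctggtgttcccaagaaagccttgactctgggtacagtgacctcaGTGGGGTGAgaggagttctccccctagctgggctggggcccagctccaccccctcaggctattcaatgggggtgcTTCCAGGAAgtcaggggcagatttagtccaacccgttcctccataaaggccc
Mt1: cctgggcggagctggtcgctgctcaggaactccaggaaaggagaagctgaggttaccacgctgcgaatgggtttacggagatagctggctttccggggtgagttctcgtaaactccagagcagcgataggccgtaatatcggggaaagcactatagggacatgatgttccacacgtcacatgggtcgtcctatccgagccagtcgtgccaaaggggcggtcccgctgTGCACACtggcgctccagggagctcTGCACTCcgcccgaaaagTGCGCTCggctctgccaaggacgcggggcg
Mt2: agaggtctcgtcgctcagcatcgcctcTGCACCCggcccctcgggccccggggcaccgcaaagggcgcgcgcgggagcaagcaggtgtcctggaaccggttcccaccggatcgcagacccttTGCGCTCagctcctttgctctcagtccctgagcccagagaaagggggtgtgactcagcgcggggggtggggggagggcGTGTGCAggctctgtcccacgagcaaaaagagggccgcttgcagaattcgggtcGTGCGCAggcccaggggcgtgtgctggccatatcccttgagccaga
Mt3: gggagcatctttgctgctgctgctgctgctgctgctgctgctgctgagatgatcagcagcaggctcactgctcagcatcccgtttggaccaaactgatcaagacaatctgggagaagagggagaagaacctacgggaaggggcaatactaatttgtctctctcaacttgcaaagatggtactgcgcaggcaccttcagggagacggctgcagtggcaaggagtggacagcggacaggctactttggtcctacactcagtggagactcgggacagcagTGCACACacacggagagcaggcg

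The windows hold 3 metal response elements in Mt1, 4 in Mt2 and 1 in Mt3. Those at bases 3 and 21 in Mt1, 5 in Mt2 and 28 in Mt3, counted from the transcript start, lie past it. Of all 32851 windows of this length in the table, 25.7% hold at least 1 such element, 1.97% at least 3 and 0.517% at least 4. A STAT-type site, which reads the same on both strands, occurs in 8.30% of all windows and a sterol regulatory element, on either strand, in 1.24%. Windows were found for 35 of the 39 members, and Aqp4, Atp1b2, Clu and Sox9 were not matched. Of the 35 genes, 7 held a STAT-type site in a window, against 9.55% of all genes in the table. A sterol regulatory element was held by 4, namely Gfap, Itih3, Ndrg2 and Aldoc, against 1.44% of all genes. An AP-1 site (TGANTCA, the same on both strands) was held by Mt2 and Gja1, against 8.97% of all genes, and the full NFI site by no member. The metal response element was in its TGCACNC form held by 4 of the 35, against 14.2% of all genes, and in its TGCGCNC form by 9, against 17.0%, among them the uncalled Aldh1l1, Fgfr3, Glul, Slc4a4 and Slc7a10. These are matches of letters and not sites known to be bound, and no link between them and the folds was tested.

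The listed astrocyte genes were shifted upward in both knockouts, but unevenly, and no member met the rule for a lower gene in either. A gene was called higher when its fold reached 5 to 4, a log2 fold of 0.322, with at least 50 units of signal in the knockout pool, which is the size rule of the study's methods. It was called lower at a fold of 4 to 5 or less, with at least 50 units in the control pool. By this rule 14 of 39 members (35.9%) were higher in 2aECKO, against 2.04% of all 12426 genes, and 0 were lower, against 1.44%. In 2aiECKO 15 of 39 (38.5%) were higher, against 1.77% of all genes, and 0 were lower, against 0.523%. In both knockouts 11 were higher (28.2%), against 0.547% of all genes. At a fold of 1.5 the higher members were 1 in 2aECKO, against 0.249% of all genes, and 4 in 2aiECKO, against 0.274%, and 0 were lower in either, against 0.0724% and 0.0161%. With 1 pooled array per condition these differences have no replicate check and no test was made. The members were chosen with earlier results of these data known, so their excess over all genes is no independent evidence. Of 29 measured genes in another astrocyte list, 2 were higher and 2 lower in 2aECKO, and 4 were higher and 0 lower in 2aiECKO.

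The median log2 fold of the members was 0.21 in 2aECKO, with single genes from -0.11 to 0.89, and 0.26 in 2aiECKO, with single genes from -0.01 to 0.90. Over all genes the medians were -0.01 and -0.004. Without Gfap the members' medians were 0.20 and 0.26, with 13 and 14 of 38 genes higher, so the shift did not rest on Gfap alone. Of all members, 34 lay above 0 in 2aECKO and 36 in 2aiECKO, whereas 46.3% and 46.4% of all genes did so. For scale, the 5th and 95th percentiles of all genes were -0.22 and 0.23 in 2aECKO and -0.18 and 0.22 in 2aiECKO. In bulk tissue a larger share of astrocytes and more RNA per astrocyte cannot be told apart.

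**Figure D1:**
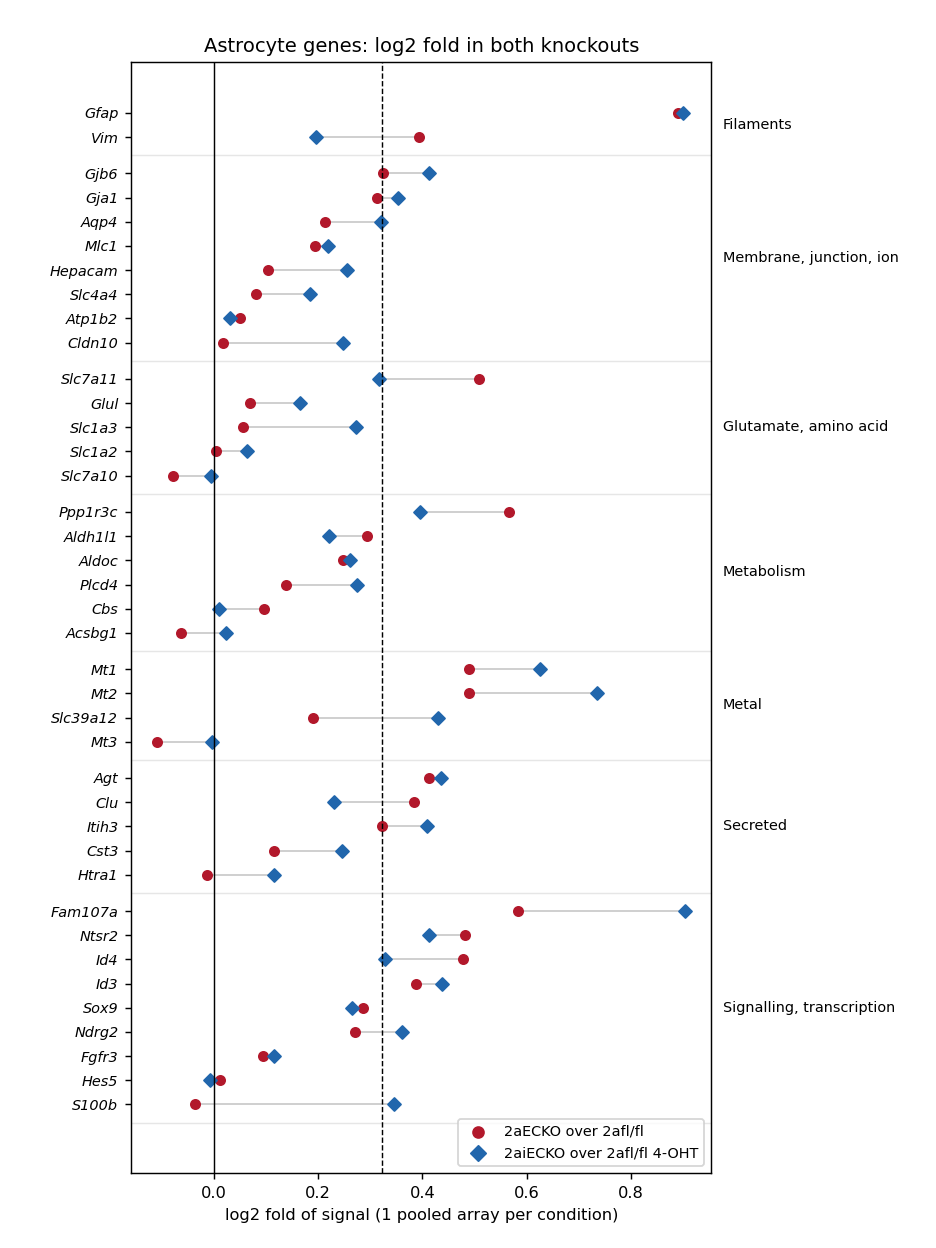
Log2 fold of signal (horizontal axis) of the 39 astrocyte genes, grouped by role, in 2aECKO over 2afl/fl (red circles) and in 2aiECKO over 2afl/fl 4-OHT (blue diamonds), each from 1 pooled array per condition; the dashed line marks 0.322, the limit for a higher gene. Gfap lies furthest right in 2aECKO and Fam107a beside it in 2aiECKO, while Slc1a2, Slc7a10, Acsbg1 and Hes5 lie within 0.08 of 0 in both.

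In what follows signals are given with the control first. Of the filament genes, Gfap was higher to nearly the same degree in both knockouts, and Vim, its partner in immature and reactive astrocytes, was called in 2aECKO. Gfap went from 326 to 604 in the constitutive pair, a 1.85-fold difference (log2 fold 0.89), and from 264 to 493 in the induced pair, a 1.87-fold difference (log2 fold 0.90). Its other 2 probe sets gave log2 folds of 0.87 and 0.76 in the constitutive pair and of 0.92 and 0.78 in the induced one, so the size did not rest on a single probe set. Vim went from 1228 to 1613 in the constitutive pair (log2 fold 0.39) and from 1151 to 1317 in the induced pair (log2 fold 0.19). All 3 probe sets of Vim were past the limit in 2aECKO and all 3 short of it in 2aiECKO.

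Among membrane, junction and ion transport genes the connexin genes stood highest. Gjb6, a gap junction gene of mature astrocytes, went from 278 to 348 in the constitutive pair (log2 fold 0.325) and from 160 to 213 in the induced pair (log2 fold 0.41). Gja1, the main connexin gene of astrocytes, went from 3983 to 4944 (log2 fold 0.31) and from 3446 to 4403 (log2 fold 0.35). In 2aECKO Gjb6 was thus just past the limit and Gja1 just short of it. The 5 other probe sets of Gja1 spread from 0.23 to 0.49 in 2aECKO, on both sides of the limit. Aqp4, the water channel gene of the endfeet, went from 2774 to 3216 (log2 fold 0.21) and from 1847 to 2307 (log2 fold 0.321). Its value in 2aiECKO was the nearest to the limit from below, and its other 2 probe sets gave 0.41 and 0.40 there. Mlc1 and Hepacam, whose proteins form a complex at the endfeet, had log2 folds of 0.19 and 0.10 in the constitutive pair, and 0.22 and 0.26 in the induced pair. The bicarbonate cotransporter gene Slc4a4 had 0.08 and 0.18, the claudin gene Cldn10 had 0.02 and 0.25, and the sodium pump subunit gene Atp1b2 had 0.05 and 0.03. So Gjb6 was called in both knockouts, Gja1 in 2aiECKO, and the other genes of this role in neither, with Aqp4 called in 2aiECKO when all probe sets were averaged, a loess trend removed or the median centred.

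Genes of glutamate uptake, the best known task of homeostatic astrocytes, were not called in either knockout. Slc1a2, the main glutamate transporter gene of the forebrain, went from 4961 to 4970 in the constitutive pair (log2 fold 0.00) and from 2703 to 2823 in the induced pair (log2 fold 0.06). Its dimmer probe sets of sufficient signal gave -0.13 and -0.26 in the constitutive pair, and -0.06 and 0.00 in the induced pair. Slc1a3, the glutamate transporter gene used earlier in development, went from 2257 to 2347 (log2 fold 0.06) and from 1510 to 1824 (log2 fold 0.27). Its other bright probe sets lay between 0.10 and 0.26 in 2aECKO. The glutamine synthetase gene Glul had log2 folds of 0.07 and 0.17. Slc7a10, a serine and alanine transporter gene, had -0.08 and -0.01. Slc7a11, the cystine and glutamate exchanger gene, went from 151 to 215 (log2 fold 0.51) and from 72.2 to 89.97 (log2 fold 0.317). It was called in 2aECKO and fell just short in 2aiECKO. A second, dimmer probe set of Slc7a11 gave 0.03 in 2aECKO and 0.22 in 2aiECKO, so the 2aECKO call depended on the probe set.

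Of the metabolic genes, Ppp1r3c was the one called. It encodes a subunit that directs protein phosphatase to glycogen, and it went from 904 to 1338 in the constitutive pair (log2 fold 0.57) and from 903 to 1187 in the induced pair (log2 fold 0.40). Its second probe set gave 0.64 and 0.46. The folate enzyme gene Aldh1l1, a general astrocyte marker, went from 954 to 1169 (log2 fold 0.29) and from 622 to 725 (log2 fold 0.22). Both values were short of the limit but above the 95th percentile of all genes. The glycolytic gene Aldoc had log2 folds of 0.25 and 0.26, and the phospholipase gene Plcd4 had 0.14 and 0.27. Cbs, an enzyme gene of homocysteine metabolism, had 0.10 and 0.01, and the acyl-CoA synthetase gene Acsbg1 had -0.06 and 0.02.

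The metallothionein genes, whose small proteins bind zinc and copper, divided by gene. Mt1 went from 1831 to 2571 in the constitutive pair (log2 fold 0.49) and from 1274 to 1965 in the induced pair (log2 fold 0.63). Mt2 went from 839 to 1178 (log2 fold 0.49) and from 769 to 1279 (log2 fold 0.73). Mt3, the form most tied to brain, went from 1551 to 1438 (log2 fold -0.11) and from 1018 to 1015 (log2 fold -0.004). So Mt1 and Mt2 were higher in both knockouts, while Mt3 had the lowest fold of all members in 2aECKO and stood at its control level in 2aiECKO. The bright probe set of Mt1 is of a design that can match several transcripts, and the other one, with a mean signal of only 52.5, gave 0.35 and 0.30. The zinc transporter gene Slc39a12 went from 400.2 to 457 (log2 fold 0.19) and from 291 to 392 (log2 fold 0.43). It was called in 2aiECKO.

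Of the genes for secreted proteins, Agt and Itih3 were higher in both knockouts and Clu in 2aECKO. Agt, the angiotensinogen gene, which in brain is used mainly by astrocytes, went from 336 to 447 in the constitutive pair (log2 fold 0.41) and from 378 to 511 in the induced pair (log2 fold 0.44). Itih3, of the inter-alpha-trypsin inhibitor family, went from 113 to 141 (log2 fold 0.322) and from 91.2 to 121 (log2 fold 0.41). Its 2aECKO value was the nearest to the limit from above. Clu, the clusterin gene, went from 2982 to 3892 (log2 fold 0.38) and from 2805 to 3290 (log2 fold 0.23). All 4 probe sets of Clu were past the limit in 2aECKO, at 0.34 to 0.41, and they spread from 0.23 to 0.34 in 2aiECKO. The cystatin C gene Cst3 had log2 folds of 0.11 and 0.25, and the secreted protease gene Htra1 had -0.01 and 0.12.

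Of the genes for signalling and transcription, Fam107a, Ntsr2, Id3 and Id4 were higher in both knockouts. Fam107a, an actin-associated gene that glucocorticoids induce, went from 928 to 1390.3 in the constitutive pair (log2 fold 0.58) and from 479 to 897 in the induced pair (log2 fold 0.90). It stood second to Gfap in 2aECKO and first of the members in 2aiECKO, and its next probe set gave 0.45 and 0.82. Ntsr2, a neurotensin receptor gene, went from 683 to 954 (log2 fold 0.48) and from 364 to 484 (log2 fold 0.41). The Id proteins hold back differentiation factors of the basic helix-loop-helix family. Id4 went from 1912 to 2664 (log2 fold 0.48) and from 1765 to 2215 (log2 fold 0.33), and Id3 from 729 to 953 (log2 fold 0.39) and from 819 to 1109.6 (log2 fold 0.44). Hes5, a Notch target of progenitors and astrocytes, went from 334 to 337 (log2 fold 0.01) and from 316 to 314 (log2 fold -0.01), and its second probe set gave -0.01 and 0.20. So the Id genes were called and Hes5 was not.

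Of the remaining genes of this role, Ndrg2 and S100b were called in 2aiECKO. Sox9, a transcription factor gene of the astrocyte lineage, had log2 folds of 0.29 and 0.26, and the growth factor receptor gene Fgfr3 had 0.09 and 0.11. Ndrg2, a gene of mature astrocytes, went from 2529 to 3051 in the constitutive pair (log2 fold 0.27) and from 2219 to 2849.7 in the induced pair (log2 fold 0.36). S100b, a calcium-binding protein gene, went from 512 to 499 (log2 fold -0.04) and from 297 to 377 (log2 fold 0.34). S100b was the one member whose folds had opposite signs and lay further apart than the limit. With quantile normalization over 4 arrays and the mean of both controls its folds were 0.20 and 0.11, but these include the difference between the controls.

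**Figure D2:**
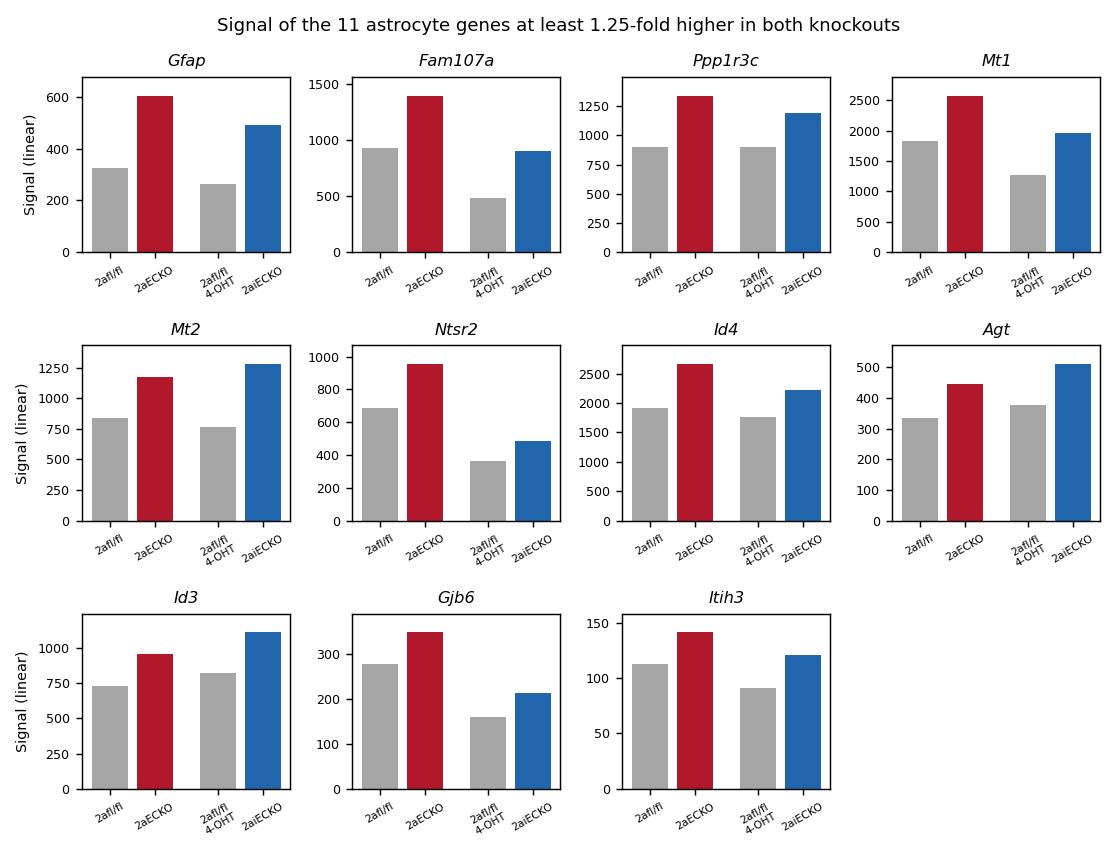
Signal on a linear scale (vertical axes start at 0 and differ between panels) in 2afl/fl and 2afl/fl 4-OHT (grey), 2aECKO (red) and 2aiECKO (blue) of the 11 astrocyte genes called higher in both knockouts; each bar is 1 pooled array, so there are no error bars. The knockout bar exceeds its own control in every panel, as the rule for these genes requires, and the pairs stand at different levels, as for Ntsr2 and Fam107a.

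The genes called together with Gfap in both knockouts were thus Fam107a, Ppp1r3c, Mt1, Mt2, Ntsr2, Id4, Agt, Id3, Gjb6 and Itih3. A further 3 genes, Slc7a11, Vim and Clu, passed the limit in 2aECKO and fell short of it in 2aiECKO. For Gja1, Slc39a12, S100b and Ndrg2 it was the reverse, and whether these genes differ between the models was not tested. The other 21 members passed in neither. They were not all at their control level, with a median log2 fold of 0.08 in 2aECKO, from -0.11 to 0.29, and of 0.18 in 2aiECKO, from -0.01 to 0.32, and with 17 and 18 of them above 0. By role, 4 of 9 genes of signalling and transcription, 2 of 4 metal genes, 2 of 5 genes for secreted proteins and 1 of 2 filament genes were called in both. So were 1 of 8 membrane, junction and ion genes, 1 of 6 metabolic genes and 0 of 5 genes of glutamate and amino acid transport. Of all genes 0.547% were called in both, so 0 of 5 does not set this role apart from genes at large.

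The members' folds ran in a similar order in both knockouts. Across the 39 genes Pearson's r between the knockouts was 0.82 and Spearman's rho 0.77, and without Gfap r was 0.77. Across all 12426 genes r was 0.43. These are correlations over genes, which are no replicates, and the knockouts had separate control arrays. The members were also chosen with earlier results of these data known, so their larger r is no independent evidence. The log2 fold was larger in 2aiECKO for 28 members and in 2aECKO for 11, with a median difference of -0.07 (2aECKO minus 2aiECKO). Over all genes it was larger in 2aiECKO for 6369 and in 2aECKO for 6045, with a median difference of -0.004. With quantile normalization over 4 arrays and the mean of both controls the members' medians were 0.25 in 2aECKO and 0.22 in 2aiECKO, the reverse order. The models differ in cre line, age and 4-OHT, and these cannot be told apart.

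**Figure D3:**
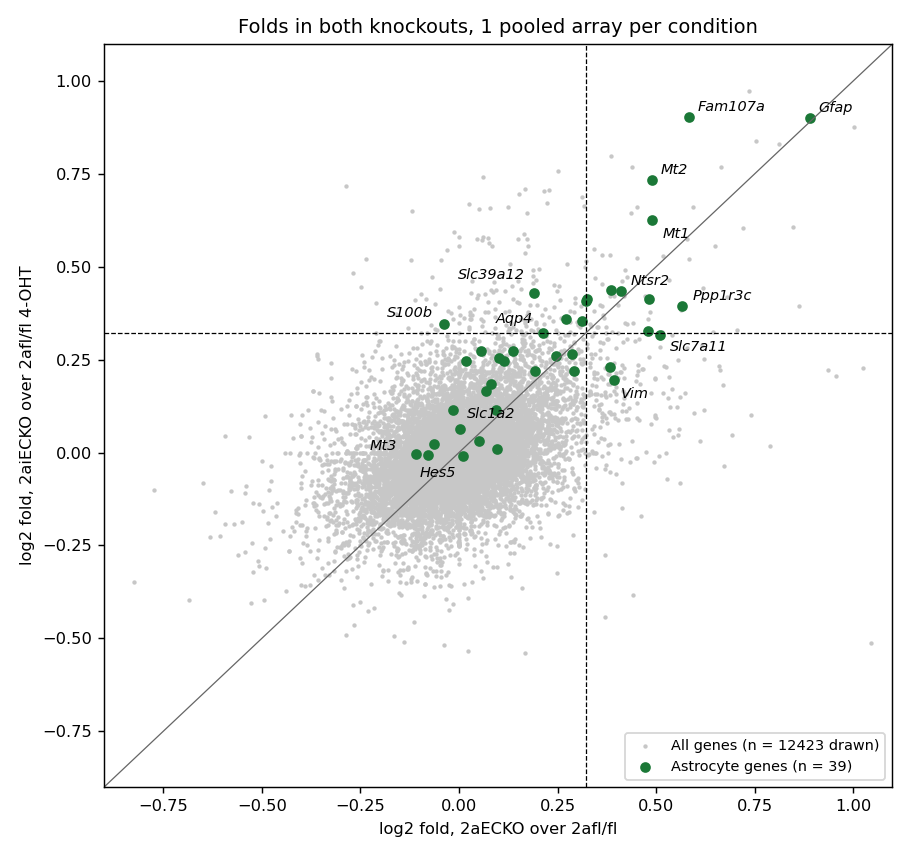
Log2 fold in 2aECKO over 2afl/fl (horizontal axis) against log2 fold in 2aiECKO over 2afl/fl 4-OHT (vertical axis) for the 39 astrocyte genes (green) and all genes of sufficient signal (grey, 12423 drawn and 3 outside the axes); dashed lines mark 0.322 and the diagonal marks equal folds. In the upper right field, past both dashed lines, lie 11 members, and 33 have folds above 0 in both.

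Probe sets allowed a limited check of single genes, since those of a gene read different stretches of its RNA on the same array. Of the members, 23 had at least 2 probe sets with a mean signal of 50 or more. The range of log2 folds within a gene had a median of 0.13 in 2aECKO and 0.09 in 2aiECKO, the widest being 0.48 for Slc7a11 and 0.33 for Gja1. In 2aECKO 21 of the 23 genes, and in 2aiECKO 16, lay on one side of the limit at all these probe sets. The 11 members called in both had 18 such probe sets, and 15 of them were past the limit in both knockouts. These include the 11 probe sets that made the calls, which pass by the rule and are no check. The others past the limit in both were of Gfap, Fam107a and Ppp1r3c. Mt2, Ntsr2, Agt, Id3, Gjb6 and Itih3 had no second probe set. The exceptions were 2 probe sets of Id4 and 1 of Mt1, all short of it in 2aiECKO.

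**Figure D4:**
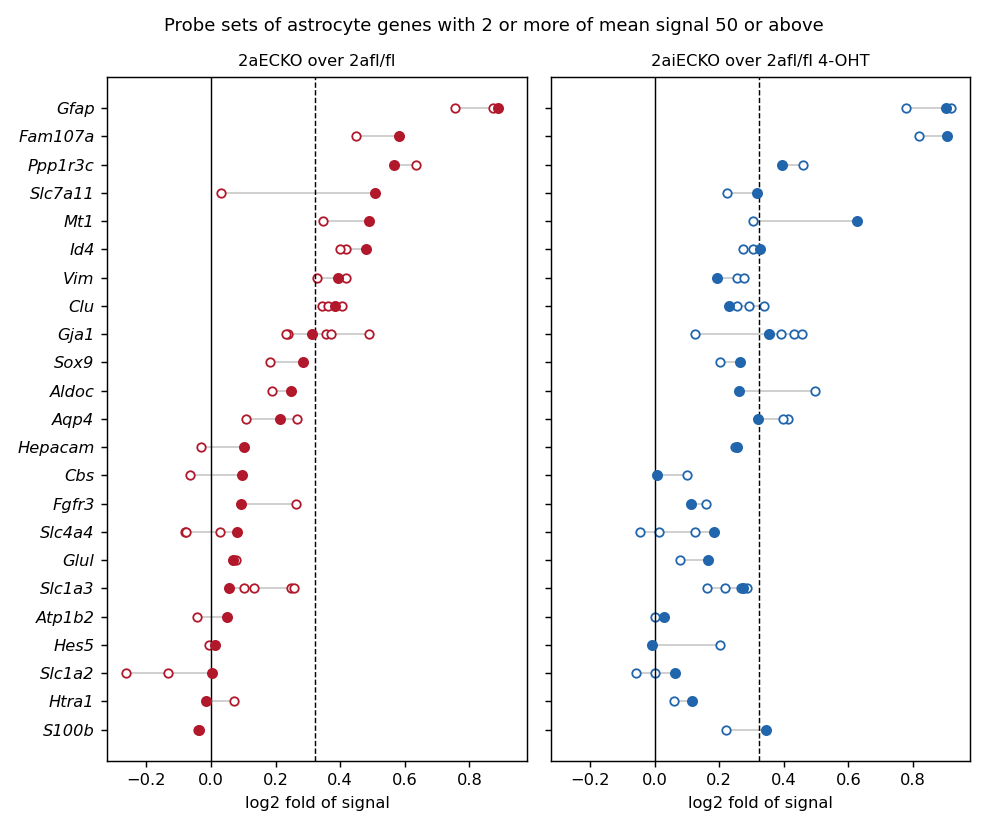
Log2 fold of signal (horizontal axes) at each probe set with a mean signal of at least 50, for the 23 astrocyte genes with 2 or more of them, in 2aECKO (left) and 2aiECKO (right); filled points are the probe sets used, open points the others, and the dashed line marks 0.322. The probe sets of Gfap stay between 0.76 and 0.92 over both panels, and those of Slc7a11 in 2aECKO lie furthest apart.

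Other astrocyte genes had smaller median folds than the members. Of 29 measured genes in a list of 30, 2 were higher and 2 lower in 2aECKO, and 4 were higher and 0 lower in 2aiECKO, with median log2 folds of 0.09 and 0.13. Of all genes 2.04% were higher and 1.44% lower in 2aECKO, and 1.77% and 0.523% in 2aiECKO. The ectonucleotidase gene Entpd2 had 0.40 and 0.40, and Prodh, the proline dehydrogenase gene, had 0.40 and 0.32. The urea transporter gene Slc14a1 had 0.15 and 0.41, and Ttyh1 had 0.30 and 0.34, both called in 2aiECKO. Lower in 2aECKO were Chrdl1, a secreted regulator of synapse maturation, at -0.54, and the glutamate receptor gene Grin2c at -0.50, with -0.27 and -0.16 in 2aiECKO. Grin2c was near the minimum signal, with a mean of 50.7. It went from 81.4 to 57.7 in the constitutive pair and from 39.6 to 35.5 in the induced pair. Chrdl1 and the called Prodh were also dim, with means of 80.1 and 73.7.

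Of 12 measured genes in a list of 18 general reactive genes, 2 were called higher in 2aECKO and 3 in 2aiECKO, with 0 lower in either and medians of 0.11 and 0.21. For scale, 2.04% of all genes were called higher in 2aECKO and 1.77% in 2aiECKO. The lectin gene Lgals3, also of phagocytes, had log2 folds of 0.52 and 0.53, and the ceruloplasmin gene Cp had 0.33 and 0.34. Serpina3n, a protease inhibitor gene of reactive astrocytes, went from 90.9 to 105.5 in the constitutive pair (log2 fold 0.22) and from 101 to 164 in the induced pair (log2 fold 0.70). So Serpina3n was called in 2aiECKO alone of the knockouts, a difference that was not tested. Of 7 measured genes in a list of 11 linked to inflammation-induced (A1) reactivity, 1 was higher in 2aECKO, Serping1 at 0.38. In 2aiECKO 0 were higher, and Serping1 had 0.18. Of 8 measured genes in a list of 12 linked to ischaemia-induced (A2) reactivity, 1 was higher in each knockout. These were Tm4sf1 at 0.43 in 2aECKO and Cd14, a receptor gene of myeloid cells, at 0.47 in 2aiECKO. Cd14 was near the minimum signal, going from 53.0 to 73.5 in the induced pair. No measured gene of the A1 and A2 lists was lower in either.

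Of 20 measured genes in a list of 22 for pathways that act on Gfap, 2 were higher in 2aECKO, the ligand gene Bmp4 at 0.47 and the receptor gene Notch2 at 0.42, and 1 was lower, the ligand gene Bmp2 at -0.33. In 2aiECKO 0 were higher and 0 lower, with Bmp4 at 0.23, Notch2 at 0.30 and Bmp2 at -0.17. The medians were 0.11 and 0.02, and the shares of all genes called higher were 2.04% in 2aECKO and 1.77% in 2aiECKO. Stat3, the factor of the cytokine pathway, was picked after its values were seen and had 0.14 and 0.24.

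Markers of other cells moved in the same pools, and several members are not made by astrocytes alone. Vim, Mt1, Mt2, Id3, Clu, Cst3, Gja1, Gjb6 and S100b are also known in vascular, meningeal, ependymal or microglial cells, a grouping made after their values were seen, and 6 of these 9 were called in each knockout. Of the other 30 members 8 were called in 2aECKO and 9 in 2aiECKO, with medians of 0.16 and 0.26. Whether those 30 are made by astrocytes alone was not examined. Over all genes the shares called higher were 2.04% in 2aECKO and 1.77% in 2aiECKO. In 2aECKO 6 of 10 meningeal markers were higher, led by Col1a1 at 0.74, Fmod at 0.72, Col1a2 at 0.67 and Ogn at 0.58, with a median of 0.41 and a summed signal that went from 5493 to 7697. Of 9 measured markers of ependyma and choroid plexus 5 were higher there, led by Tmem212 at 0.66, Otx2 at 0.65, Ccdc153 at 0.54 and Foxj1 at 0.44, with a median of 0.42. Their summed signal went from 13299 to 15433, but most of it was Ttr. That gene went from 12500 to 14391 (log2 fold 0.20) and was not called. In 2aiECKO 3 meningeal markers were higher, Fmod at 0.60, Ogn at 0.52 and Lum at 0.38, with a median of 0.21 and a summed signal from 3664 to 4317. The ependymal and choroid list had 1 higher there, Otx2 at 0.56, with a median of 0.13. Its summed signal went from 11018 to 12407, again mostly Ttr, which went from 10292 to 11583 (log2 fold 0.17, not called). The part of these cells in the astrocyte values was not tested.

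Most microglial markers were higher in 2aiECKO and none in 2aECKO. In 2aiECKO 8 of 10 were higher, against 1.77% of all genes. They were led by Tyrobp at 0.76, C1qa at 0.69, C1qb at 0.67 and C1qc at 0.66. The list had a median of 0.50 and a summed signal that went from 4164 to 6020.4. In 2aECKO 0 were higher and 2 were lower, P2ry12 at -0.36 and Tmem119 at -0.46, while 7 of 10 lay above 0, with a median of 0.10 and a summed signal from 4626 to 4882. That difference between the models was not tested, nor was the part of microglia in the astrocyte values.

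Neuronal markers had medians of -0.06 and -0.03, with Slc17a7 at -0.39 and Camk2a at -0.36 called lower in 2aECKO. Progenitor markers had medians of 0.08 and 0.04, with Pax6 at 0.40 and Sox2 at 0.34 called higher in 2aECKO. Sox2 is also a gene of astrocytes. Oligodendrocyte markers had medians of 0.00 and 0.25, with Mobp at -0.34 called lower in 2aECKO and Mbp at 0.42 called higher in 2aiECKO. Mural markers had medians of 0.10 and -0.02, with Abcc9 at -0.39 and Kcnj8 at -0.35 called lower in 2aiECKO. Endothelial markers, with medians of 0.04 and -0.13, and markers of oligodendrocyte precursors, with 0.06 and 0.02, had no gene called.

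**Figure D5:**
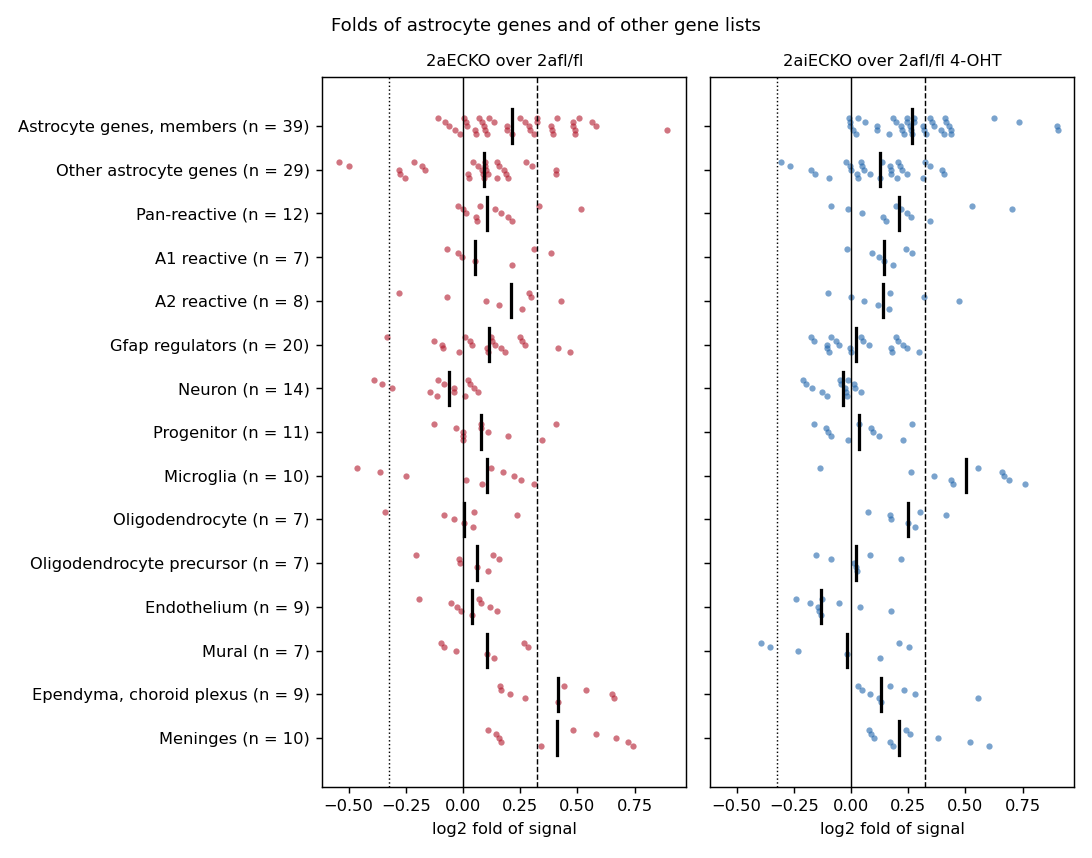
Log2 fold of signal (horizontal axes) of each measured gene of the astrocyte list and of 14 other lists, in 2aECKO (left) and 2aiECKO (right); points are genes, black bars are list medians, and the dashed and dotted lines mark the limits for a higher and a lower gene. The astrocyte members lie mostly right of 0 in both panels, with medians of 0.21 and 0.26, whereas microglial markers have a median of 0.50 in 2aiECKO and 0.10 in 2aECKO.

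The arrays limit these values in ways that touch all genes. The median signal was 74.1 and 75.5 in the constitutive pair but 48.7 and 49.2 in the induced pair, so folds were formed within a pair only. The number of arrays, 1 per condition, limits the precision. The single Mfsd2a probe set went from 423 to 410.2 (log2 fold -0.05) and from 369 to 299 (log2 fold -0.30). Its place relative to the deleted exons is unknown here and other brain cells express Mfsd2a, so the probe set is no check of the labels.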

How the data were processed

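Cerebrum RNA was measured in 4 pooled samples on Affymetrix mouse arrays. Per the methods, the deposited intensity of each probe set is a linear RMA signal that the authors had background-adjusted and quantile-normalized. The 4 arrays do not share one distribution, however. Their median signals were 74.1 and 75.5 in the constitutive pair and 48.7 and 49.2 in the induced pair. The methods name the affy package in R, whereas the submitters' processing notes name Partek 6.6. Animals were pooled before the array, so no spread between animals can be had.

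Log2 intensities were computed from the deposited values and folds formed within a pair. Of 45101 probe sets, those with 1 gene symbol (34958) were used, and 932 with several were not. Symbols were updated through RefSeq gene identifiers (GRCm38.p6). A gene was read at its brightest probe set, with a mean signal (2 to the mean log2) of at least 50. The text names every member, Mfsd2a, the called genes of the astrocyte and reactive lists, and up to 4 called genes of largest fold of each cell marker list, beside P2ry12, Tmem119 and Lum, which were added after their values were seen. The members and the 15 other lists were chosen with earlier results of these data known. Of the blood list 1 gene was measured, Alas2, at 1.05 (called higher) in 2aECKO and -0.51 in 2aiECKO. It was near the minimum signal, with a mean of 50.6. It went from 57.9 to 119.6 in the constitutive pair and from 36.8 to 25.8 in the induced pair. With a control signal below 50 it could not be called lower there.

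With 1 array per condition there was no test and no p-value. The 9 alternatives were all probe sets averaged per gene, no probe sets of the less specific designs, a loess trend (fraction 0.3) removed, median centring, quantile normalization over 4 arrays, the same with both controls averaged, a minimum of 100 or none, and a fold of 1.5. Python 3.11.15, numpy 2.4.6, pandas 2.3.3, statsmodels 0.14.6 and matplotlib 3.10.9 were used.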

Additional observations from a re-analysis of the deposited data

Results flagged for a closer look

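S100b was singled out because its folds had opposite signs in the models and lay further apart than the limit for a higher gene. Its log2 fold was -0.037 against the control of the constitutive pair and 0.345 against that of the induced pair, each from 1 pooled array per condition. The difference between the models was not tested. The second S100b probe set gave -0.04 in 2aECKO and 0.22 in 2aiECKO, and with the mean of all probe sets the 2aiECKO value was 0.28, short of the limit. With quantile normalization over 4 arrays and the mean of both controls S100b had 0.20 in 2aECKO and 0.11 in 2aiECKO, without the opposite signs and the call. That setting puts the difference between the controls into each fold, so it cannot check the folds within a pair.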

How the results depend on the processing

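The counts of higher members in each knockout stayed within 1.5 times of 14 and 15 under all alternatives but the stricter fold. The medians, which a fold limit does not enter, kept their direction under the 8 other alternatives. At a fold of 1.5 the higher members were 1 in 2aECKO (Gfap) and 4 in 2aiECKO (Fam107a, Gfap, Mt1 and Mt2), and 1 was higher in both. With quantile normalization over 4 arrays and the mean of both controls, 6 members were higher in both in place of 11. That setting puts the difference between the controls into each fold. No value that was called changed sign under any alternative. Of the 11 genes higher in both, 4 (Gfap, Fam107a, Ppp1r3c and Mt2) kept their calls in both knockouts under all 8 alternatives with single-gene values at the original fold limit, and Mt1, Gjb6, Agt, Itih3, Id3, Id4 and Ntsr2 each lost a call in one knockout under at least 1. Calls were also gained. In 2aECKO Gja1 stayed uncalled under only 4 of these 8 alternatives, and Aqp4, Aldh1l1 and Sox9 were called with both controls averaged. In 2aiECKO the same setting called Mlc1, Hepacam, Cldn10 and Plcd4, and averaging all probe sets called Aldoc and Aqp4. So some members uncalled at the main setting depended on the processing. No replicate could be left out, and no paired analysis was possible because each condition is 1 pooled array.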
